A study of Mus musculus with 4 samples.

Results

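The regions described here are the gene promoters that were open in bone marrow-derived macrophages (BMDMs) whatever their histone H3.3 genotype: 6237 merged ATAC-seq regions at 5948 protein-coding genes, out of 71243 merged regions in the series and 44820 regions with a peak in all 4 libraries. ATAC-seq uses the Tn5 transposase to cut and tag accessible DNA, so that a pile-up of reads, called as a peak, marks open chromatin. Overlapping peaks of the 4 libraries (1 bp or more) were joined into merged regions, and a merged region was kept if it was autosomal, narrower than 1500 bp, carried a peak in all 4 libraries and had its centre from 1000 bp before to 100 bp after the transcription start site (TSS) of a protein-coding transcript. The members were therefore selected on measured values, the presence of a peak in each library and the width of the merged region, and neither of these 2 properties is a result. A further 1238 promoter regions met the other conditions but were 1500 bp wide or wider, and 229 lay on chromosome X.

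WT BMDMs came from mice with floxed alleles of both H3.3 genes (H3f3a fl/fl and H3f3b fl/fl) and no Cre. cKO BMDMs came from mice with the same floxed alleles that were also LysM cre/cre, in which Cre from the myeloid LysM (Lyz2) locus deletes exon 2 of H3f3a and exons 1 to 4 of H3f3b. Each genotype had 2 libraries of biological replicates (WT1, WT2, cKO1 and cKO2). The mice were of the C57BL/6 background and 8 to 10 weeks old, and the cells were grown in L929-conditioned medium for 6 to 8 days per the labels. Because the WT mice lacked Cre, the presence of Cre and the loss of H3.3 cannot be told apart in this comparison, and neither can fewer open cells and less opening per cell in these bulk samples.

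A promoter is the stretch of DNA around the start of a gene on which general transcription factors and RNA polymerase II assemble, and in active genes it is kept free of stable nucleosomes. Histone H3.3 is the H3 variant that is placed into chromatin outside DNA replication, by the HIRA complex at active genes and enhancers and by DAXX and ATRX at silent repeats. Many mammalian promoters are rich in the dinucleotide CpG and are bound by broadly expressed factors such as SP/KLF proteins, NFY, NRF1 and ETS factors, whereas macrophage enhancers carry sites for PU.1, C/EBP and AP-1.

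Sequences upstream of the TSS are shown for 6 members: the Pex2 promoter, which is among the 3 highest in rank, Irf8 and Rab40b, which were lower in cKO, Hist3h2ba and Ifi206, which were higher, and Yif1b, whose peak was wider. Each is the 300 bases before the TSS that names the member, read 5′ to 3′ on the gene's strand from the RefSeq sequence of GRCm38.p6 (mm10), at chr3:5576240-5576539 on the minus strand for Pex2, chr8:120736058-120736357 on the plus strand for Irf8, chr11:121388252-121388551 on the minus strand for Rab40b, chr11:58948620-58948919 on the plus strand for Hist3h2ba, chr1:173491042-173491341 on the minus strand for Ifi206 and chr7:29238029-29238328 on the plus strand for Yif1b. Capitals mark matches, on either strand, to the 13 motifs searched, which are spelled out with their shares of promoters further on.
Pex2: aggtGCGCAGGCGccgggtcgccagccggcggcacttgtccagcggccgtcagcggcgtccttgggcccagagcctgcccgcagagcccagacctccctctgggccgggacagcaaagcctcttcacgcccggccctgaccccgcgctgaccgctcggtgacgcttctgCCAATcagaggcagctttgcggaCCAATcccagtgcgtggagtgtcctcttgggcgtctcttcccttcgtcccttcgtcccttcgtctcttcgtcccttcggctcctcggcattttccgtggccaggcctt
Irf8: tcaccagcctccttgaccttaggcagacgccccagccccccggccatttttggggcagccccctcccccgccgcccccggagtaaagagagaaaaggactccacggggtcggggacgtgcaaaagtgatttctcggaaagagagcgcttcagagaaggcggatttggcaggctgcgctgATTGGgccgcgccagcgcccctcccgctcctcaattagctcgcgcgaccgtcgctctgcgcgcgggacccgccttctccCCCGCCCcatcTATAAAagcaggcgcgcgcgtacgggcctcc
Rab40b: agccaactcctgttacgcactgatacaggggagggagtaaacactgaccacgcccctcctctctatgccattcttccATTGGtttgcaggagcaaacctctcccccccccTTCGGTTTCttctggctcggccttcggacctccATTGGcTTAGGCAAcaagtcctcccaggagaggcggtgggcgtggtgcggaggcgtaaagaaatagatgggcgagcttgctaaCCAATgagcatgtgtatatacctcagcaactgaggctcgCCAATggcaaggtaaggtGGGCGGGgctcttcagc
Hist3h2ba: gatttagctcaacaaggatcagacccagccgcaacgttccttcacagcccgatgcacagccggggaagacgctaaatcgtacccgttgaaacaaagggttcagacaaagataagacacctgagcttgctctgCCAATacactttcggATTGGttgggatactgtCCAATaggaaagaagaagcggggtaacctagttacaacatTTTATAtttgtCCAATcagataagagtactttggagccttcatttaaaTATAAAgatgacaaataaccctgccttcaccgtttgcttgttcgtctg
Ifi206: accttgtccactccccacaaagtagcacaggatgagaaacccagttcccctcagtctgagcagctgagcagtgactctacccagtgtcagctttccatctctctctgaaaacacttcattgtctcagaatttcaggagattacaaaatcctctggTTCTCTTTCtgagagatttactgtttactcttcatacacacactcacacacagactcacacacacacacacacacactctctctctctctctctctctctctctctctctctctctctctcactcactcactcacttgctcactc
Yif1b: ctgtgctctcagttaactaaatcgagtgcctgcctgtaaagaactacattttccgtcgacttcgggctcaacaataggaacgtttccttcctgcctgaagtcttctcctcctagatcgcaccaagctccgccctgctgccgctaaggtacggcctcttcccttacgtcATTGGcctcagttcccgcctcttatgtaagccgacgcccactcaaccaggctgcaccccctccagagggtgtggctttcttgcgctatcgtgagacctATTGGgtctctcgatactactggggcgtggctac
The Pex2 stretch held 29 CpG dinucleotides with 2 CCAAT boxes and an NRF1 match, and the Irf8 stretch held 31 with a GC box, an inverted CCAAT box and a TATA box whose first base lay 31 bases before the TSS. Hist3h2ba, a histone H2B gene, had 11 CpGs and carried 4 CCAAT boxes, of which the match with its first base at -153 was inverted. Its 2 matches to the TATA box began at -48 and, on the opposite strand, at -96. Ifi206, of the interferon-inducible Ifi200 family, held no CpG and 1 match to the paired interferon response half-sites.

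The libraries differed in depth, as far as their lists show it: WT1 and WT2 held 55742 and 64939 peaks, and cKO1 and cKO2 held 51955 and 60884. Read depth itself is unknown. Peak areas depend on depth, so each promoter was given the percentile (0 to 100) of its top peak's area among all peaks of the same library's list. A longer list adds weak peaks below a given promoter and so raises its percentile. Both replicate 2 lists were longer than both replicate 1 lists, and within each replicate number the WT list was the longer. Exon 2 of H3f3a (chr1:180811799-180811949), which Cre removes, overlapped a region called in both WT libraries, at percentiles 5.02 and 19.1, and in neither cKO library. The H3f3a promoter itself missed the width limit with 1544 bp and ranked at 96.0 and 97.2 in WT against 93.4 and 94.1 in cKO. The H3f3b member (chr11:116027762-116028173) had its centre 5.5 bp before the TSS of 1 annotated transcript, ENSMUST00000106454.7. Whether most H3f3b transcripts start there was not tested. This member was present in every list, at percentiles 23.7 and 34.3 in WT against 28.7 and 42.5 in cKO. Its 2 groups overlapped (6.56 ± 9.02 points, SE, higher in cKO, limma adjusted p = 0.681). The 300 bp around the summit of this member had 45.7% GC and an observed over expected CpG ratio of 0.192. The study describes H3f3b deletion as variable, complete in some cKO samples and partial in others. The position of the loxP sites relative to this peak is not given in the sources used here.

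The typical rank of an open promoter differed less between genotypes than between replicates. The median percentile over the members was 77.1 in WT1 and 80.2 in WT2, against 76.3 in cKO1 and 79.6 in cKO2, so each cKO value lay just under the WT value of the same replicate number and the groups overlapped. The means were 78.7 ± 2.18 in WT against 77.9 ± 2.33 in cKO (SD, n = 2 each), a difference of -0.74 points (two-sided exact permutation test, p = 0.667; 2 libraries against 2 cannot give a p below 0.333). Leaving out WT2 or cKO1 turned this small difference to 0.80 and 0.91 points higher in cKO. Non-promoter regions, the 34839 other autosomal regions under 1500 bp called in all 4 libraries, had medians of 53.1 and 59.8 in WT against 49.6 and 57.0 in cKO. Promoters stood above them by 24.0 and 20.4 points in WT and by 26.6 and 22.5 points in cKO, a gap 2.39 points larger in cKO (exact permutation test, p = 0.667). Every library placed its promoters far above its other shared regions, and the genotypes did not differ in this beyond the spread of their replicates.

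**Figure D1:**
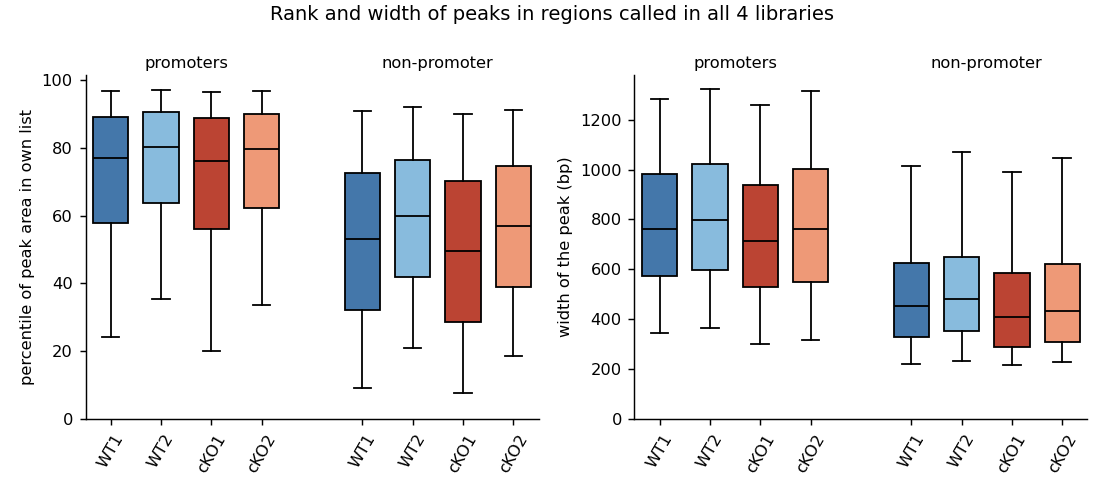
Percentile of peak area within each library's own list (left) and peak width in bp (right) for the 6237 promoters and the 34839 non-promoter regions called in all 4 libraries. Boxes span the 25th to 75th percentile over regions with the median as a line, and whiskers reach the 5th and 95th percentile. Promoters sit higher and wider than non-promoter regions in all 4 libraries, and replicate 2 sits above replicate 1 in both genotypes.

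Peaks at open promoters were slightly narrower in cKO by a margin within the replicate spread. Their median widths were 761 bp in WT1, 798 bp in WT2, 714 bp in cKO1 and 762 bp in cKO2, and the range of the WT libraries met that of the cKO libraries. The mean fell from 780 ± 26.2 bp to 738 ± 33.9 bp (SD, n = 2 each, difference -41.5 bp, exact permutation test, p = 0.667). Non-promoter peaks measured 453 and 479 bp in WT against 408 and 431 bp in cKO, so that the excess of promoter width over them, 308 and 319 bp in WT against 306 and 331 bp in cKO, differed by 5 bp (p = 1, exact permutation test). The shape around the TSS was the same kind in each library: the summit lay at a median of 75 to 77 bp before the TSS, the upstream edge at -437, -454, -425 and -440 bp and the downstream edge at 312, 331, 294 and 315 bp from the TSS, in the order WT1, WT2, cKO1 and cKO2. The upstream edge lay 13 bp and the downstream edge 17 bp closer to the TSS in cKO (exact permutation test, p = 0.667 for both).

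The members just inside the width limit, Tomm40 and Gsk3a at 1499 bp, ranked at 99.1 to 99.5 and 97.4 to 98.6 over the 4 libraries, and those just outside it, Pla2g4a and Polr2h at 1500 bp, at 90.6 to 93.5 and 93.3 to 94.5. At the upstream limit, the last member was Xdh with its centre at -999.5 bp from the TSS (percentiles 8.57 to 35.4) and the first region left out was at Tpd52, with its centre at -1000.5 bp (79.1 to 84.5). At the downstream limit, Gar1 at 100 bp (96.0 to 96.6) was kept and Ercc1 at 100.5 bp (68.5 to 83.6) was left out. Of 7236 autosomal promoter regions under 1500 bp, 327 were called in 3 libraries, 352 in 2 and 320 in 1. Those called in 3 were weak where they were called, with a median of 22.3 for the mean percentile over the calling libraries against 78.1 for the members. They lacked the cKO1 peak in 197 cases and the WT1 peak in 109, the libraries with the shortest lists, and the cKO2 or WT2 peak in 15 and 6. A promoter that fell below the caller's limit in a library is by construction not a member.

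Most members changed little. The difference of the cKO mean from the WT mean was at most 5 percentile points in 4137 members (66.3%) and over 20 points in 259 (4.15%), against 12.1% over 20 points among all 44820 regions and 14.3% among the non-promoter regions. A limma fit across all 44820 regions, with Benjamini-Hochberg adjustment over all of them at 0.05, called 261 members (4.18%) higher and 525 (8.42%) lower in cKO. The same test called 5.68% of all regions higher and 11.3% lower, so the promoters' shares lay below the background in both directions, and the shares among non-promoter regions were 5.30% and 11.6%. Both cKO values lay above both WT values in 1311 members (21.0%, background 22.2%) and below them in 2027 (32.5%, background 35.1%). The size of the change among called members ran from 1.29 to 65.4 points with a median of 7.28 for those higher, and from 1.33 to 54.4 points with a median of 7.22 for those lower.

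These calls rest on the choice of fit. With a single prior spread for all regions instead of one that follows the mean percentile, limma called 0 members, while 682 had an unadjusted p under 0.05. The excess of lower over higher calls also rests on the scale: with the lists cut to equal length 899 members were higher and 718 lower (55.6% higher), and with quantile-normalized log2 area 927 and 739 (55.6% higher), against 33.2% higher on the percentile scale. Without WT2 the counts were 283 higher and 181 lower, without WT1 108 and 309, without cKO1 210 and 244, and without cKO2 136 and 753. A region with more than 1 peak in a library was ranked by the top peak. This applied to 133 members (2.13%) and to 51 of the 786 called (6.49%), and 30 of these 51 were called in the same direction with the peaks of each library summed. In all, 221 of the 786 called members, 74 higher and 147 lower, were called in the same direction whichever single library was left out.

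**Figure D2:**
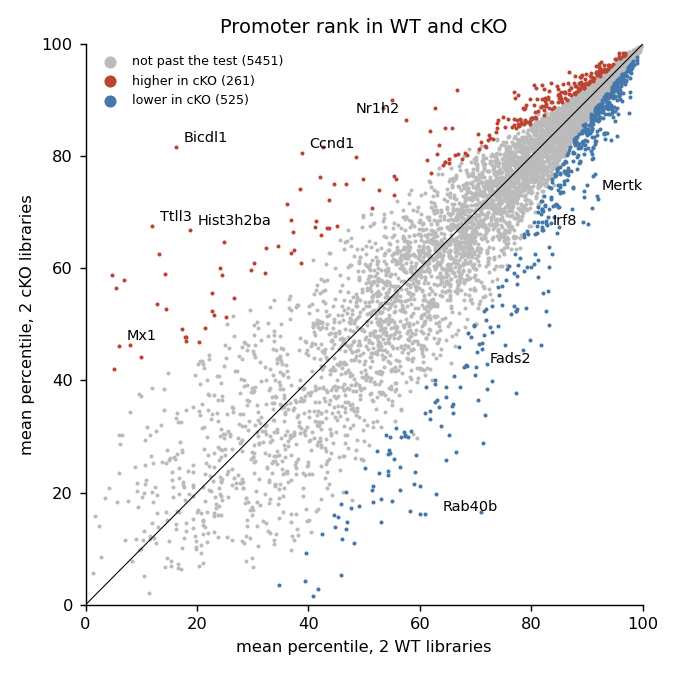
Mean percentile of each of the 6237 promoters in the 2 WT libraries (x axis) and the 2 cKO libraries (y axis), with equality as a line. Red points are the 261 members called higher and blue points the 525 called lower in cKO by limma, and the cloud narrows toward the upper right corner.

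The spread between genotypes at open promoters was narrower than at other shared regions of the same rank. Among the 1785 members with a mean percentile of 60 to 80 over the 4 libraries, the interquartile range of the genotype differences spanned 8.01 points, against 11.7 points in the 8902 non-promoter regions of that band. In the same band the differences between replicates spanned 4.15 points (WT) and 5.10 points (cKO) at promoters, and 4.20 and 4.82 points at non-promoter regions. The pattern was seen in each higher and lower band with over 500 members: 20.2 against 23.9 points at percentiles 20 to 40, 15.2 against 19.54 at 40 to 60, 4.50 against 6.11 at 80 to 90 and 1.60 against 2.55 over 90. The replicate spans of promoters were above those of non-promoter regions at percentiles 20 to 60 and 80 to 90, and below them over 90 (0.917 and 1.10 against 1.17 and 1.23). Taking replicate number 1 and 2 apart, the spans of cKO minus WT in the 60 to 80 band were 9.44 and 7.51 points at promoters and 13.3 and 10.8 points elsewhere. These spans describe 4 libraries and were not tested.

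**Figure D3:**
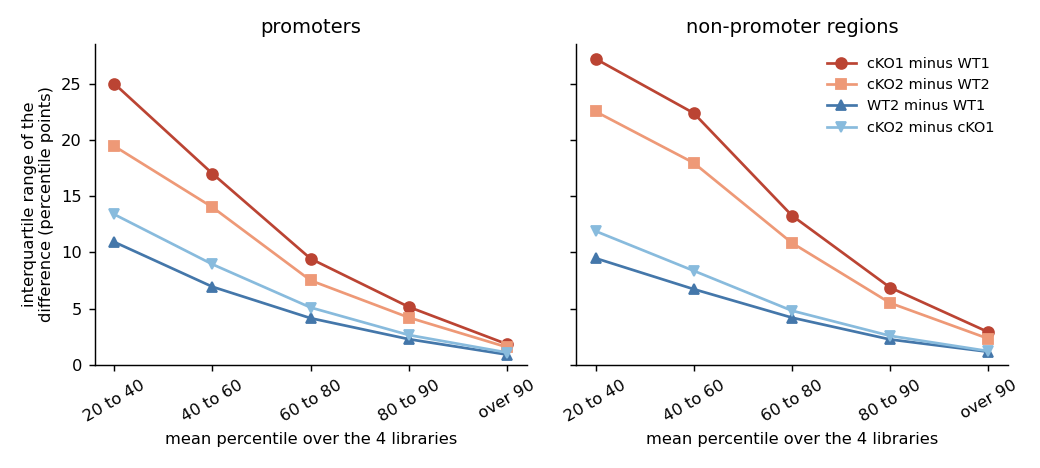
Interquartile range, in percentile points, of the difference between 2 libraries, in bands of mean percentile over the 4 libraries, for promoters (left) and non-promoter regions (right). Red lines compare genotypes and blue lines compare replicates. The red lines run lower at promoters (9.44 and 7.51 points at 60 to 80) than at non-promoter regions (13.3 and 10.8), while the blue lines lie closer together (4.15 and 5.10 against 4.20 and 4.82 points in that band).

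CpG content set ranks apart. In a window of 300 bp around the mean summit, 4242 members were CpG-rich (an observed over expected CpG ratio of at least 0.6 with at least 55% GC), 902 were CpG-poor (ratio under 0.4) and 1093 lay between. CpG-rich members ranked at medians of 80.02 and 82.8 in WT against 79.4 and 82.4 in cKO, those between at 75.9 and 78.8 against 75.3 and 78.3, and CpG-poor members at 61.5 and 66.6 in WT against 57.9 and 63.8 in cKO. The change exceeded 20 points in 2.57% of the CpG-rich, 4.94% of the intermediate and 10.6% of the CpG-poor members. At equal rank (60 to 80), the genotype differences spanned 10.1 points in CpG-poor, 7.09 in intermediate and 7.74 in CpG-rich members, so the order of the classes did not follow CpG content throughout. Non-promoter regions of the same 3 classes spanned 12.2, 11.3 and 9.11 points in that band, so that promoters spanned less within each class. The members' median change in that band was -3.18 points for CpG-poor, -0.61 for intermediate and -0.86 for CpG-rich promoters. limma called 4.66% of CpG-poor members higher and 12.1% lower, 6.40% and 6.86% of intermediate members, and 3.51% and 8.04% of CpG-rich members, against 5.68% and 11.3% of all regions.

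Divergent promoters, 615 members with a TSS of a second protein-coding gene on the other strand within 1000 bp, ranked highest, at 86.6 and 87.5 in WT against 85.6 and 87.5 in cKO, and were the widest, with medians of 934 and 971 bp in WT against 897 and 947 bp in cKO. Their genotype differences spanned 3.74 points, against 6.15 points in the other 5622 members, whose ranks were lower (75.9 and 79.4 in WT against 74.8 and 78.6 in cKO).

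The letters under the summit set promoters apart from other open regions. The GC box bound by SP/KLF factors (GGGCGGG), matched on either strand in the window of 300 bp, stood in 48.6% of members, 7.49% of non-promoter regions and 25.6% of all 32851 RefSeq promoters of the build (250 bases before to 50 after the TSS, an equal length). The CCAAT box of NFY (CCAAT) stood in 40.4%, 30.9% and 37.4%, the ETS motif (CCGGAAG) in 20.8%, 3.89% and 8.86%, the NRF1 motif (GCGCANGCG) in 14.2%, 1.45% and 6.25%, the E-box (CACGTG) in 10.7%, 5.93% and 7.15%, the CRE (TGACGTCA) in 3.70%, 0.804% and 1.79% and the YY1 motif (AAGATGGCG) in 3.62%, 0.482% and 1.40%. Motifs bound at macrophage enhancers were less frequent in members than in non-promoter regions. AP-1 (TGANTCA) stood in 5.76% of members against 23.2% of non-promoter regions and 7.81% of RefSeq promoters, PU.1 (GAGGAAGT) in 4.43%, 13.9% and 3.20%, C/EBP (TTGCNNAA) in 8.75%, 17.4% and 10.8%, RUNX (AACCACA) in 4.06%, 11.8% and 5.27% and the interferon response half-sites (GAAANNGAA) in 7.36%, 13.1% and 8.56%, so PU.1 alone of these 5 stood in more members than RefSeq promoters. The TATA box (TATAAA), a core promoter motif, stood in 4.84%, 13.3% and 13.6%. These 13 short motifs were counted independently and can share bases. The windows also differed in base composition, with a median GC of 62.3% in members and 47.7% in non-promoter regions. What part of the differences in share follows from composition was not tested.

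Within the members, the GC box stood in nearly the same share of those that changed and of the rest, while the shares of rarer motifs differed more and rest on fewer matches. The GC box stood in 48.3% of members called higher, 48.4% of those called lower and 48.6% of those not called. The ETS motif stood in 18.8%, 17.0% and 21.3%, the CCAAT box in 34.9%, 37.0% and 40.9%, the NRF1 motif in 14.2%, 11.4% and 14.4%, and the YY1 motif in 2.30% (6 members), 1.90% (10 members) and 3.85% (210 members). PU.1 matches were found in 3.83% of those higher, 6.67% of those lower and 4.24% of those not called, C/EBP matches in 11.5%, 11.4% and 8.37%, RUNX matches in 4.98%, 2.67% and 4.15%, and TATA boxes in 8.05%, 4.38% and 4.73%. These shares are descriptions and were not tested.

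The 3 promoters with the highest mean rank are given as a description, since the rule picks values near 100 in all 4 libraries and the scale ends there. Khsrp, which encodes an RNA-binding splicing and decay factor, held percentiles of 99.8 in both WT libraries and 99.7 in both cKO libraries. Pex2 (a peroxisome assembly ubiquitin ligase) ranked at 99.7 in both WT libraries, 99.7 in cKO1 and 99.6 in cKO2, and Evi5l, a regulator of Rab GTPases, between 99.4 and 99.6 in all 4. In all, 1208 members lay above the 90th percentile in every library. At such ranks a change of a few points can be past the test: 255 of the 786 called members had a mean percentile over 90, and 275 changed by less than 5 points. Of the 1469 members with a mean over 90, 5.51% were called higher and 11.8% lower, against 5.68% and 11.3% of all regions. The shares among non-promoter regions with a mean over 90 were 9.21% and 22.6%.

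Some promoters near the bottom of the WT lists stood in the upper part of the cKO lists. One of 2 members at Bicdl1, which encodes an adaptor between vesicles and the dynein motor, lay at chr5:115731997-115733133 with its centre 944 bp before the TSS and had percentiles of 29.5 in WT1 and 2.97 in WT2 against 79.9 in cKO1 and 83.4 in cKO2. It rose by 65.4 ± 8.46 points (SE, limma adjusted p = 2.27e-05), while the other Bicdl1 member, at its downstream start, stayed between 94.99 and 96.1. Ttll3, a tubulin glycylase, rose from 14.6 and 9.34 to 63.2 and 71.8 (55.5 ± 8.12 points, limma adjusted p = 8.57e-05). BC024063 rose from 3.06 and 6.37 to 57.5 and 60.1 (limma adjusted p = 2.15e-04). The groups were far apart at all 3, and each kept its call without any single library.

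Ifi206 (chr1:173491043-173491441), whose upstream sequence is printed above, rose from 3.54 and 10.3 in WT to 56.2 and 59.6 in cKO (51.0 ± 8.68 points, limma adjusted p = 3.75e-04). Hist3h2ba (chr11:58948515-58949100) rose from 10.0 and 27.5 to 64.5 and 69.1 (48.1 ± 8.24 points, limma adjusted p = 3.98e-04), and its peak measured 253 and 269 bp in WT against 485 and 585 bp in cKO. Btbd8 rose from 1.25 and 25.3 to 58.8 and 66.3. Afg3l2, for a subunit of a mitochondrial protease, rose from 5.58 and 5.32 to 46.8 and 66.1 at a region centred 969 bp before the TSS. These 4 kept their calls when any single library was left out. Btbd8 had a second member, which had 91.7 and 92.0 in WT against 89.5 and 91.9 in cKO. The other members among the 10 largest rises did not: Map4k2 (0.491 and 25.1 in WT against 49.4 and 57.8 in cKO) lost its call without WT1 (limma adjusted p = 0.104), Mx1 (3.24 and 8.95 in WT against 40.3 and 52.1 in cKO), an interferon-induced antiviral GTPase, without cKO2 (limma adjusted p = 0.0891), and Trem1 (12.3 and 37.5 in WT against 60.9 and 68.6 in cKO), a receptor that amplifies inflammation in myeloid cells, without WT1 (limma adjusted p = 0.0811). The Map4k2 and Mx1 members that rose were centred 953.5 and 726 bp before their TSS, and each gene had a second member nearer to a TSS that was not called, at 52.3 and 59.7 in WT against 62.1 and 73.3 in cKO for Map4k2 and at 84.8 and 87.0 in WT against 82.3 and 83.0 in cKO for Mx1. Of these 10 only Hist3h2ba and Trem1 remained in all 4 lists when these were cut to equal length, since a weak WT peak falls below the shortened list.

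The largest falls began from middle ranks. Rab40b (chr11:121387861-121388622), a small GTPase of the Rab family, fell from 59.1 and 66.6 to 14.4 and 24.9 (limma adjusted p = 9.26e-04). Socs2, an inhibitor of cytokine receptor signalling, fell from 56.2 and 60.2 to 16.7 and 16.6 (limma adjusted p = 1.40e-03). Fhdc1 (55.003 and 66.8 against 8.03 and 24.2), Arl5c (60.6 and 59.4 against 11.1 and 21.3), Fkbp9 (76.6 and 77.9 against 23.5 and 52.1) and Ldhb (65.6 and 67.3 against 20.3 and 34.2), a subunit of lactate dehydrogenase, fell likewise. These 6 kept their calls without any single library. The Ldhb member was centred 871 bp before the TSS, and a second one, at the TSS, had 82.0 and 87.9 in WT against 85.4 and 85.7 in cKO. Zfp512b (69.1 and 73.5 against 5.24 and 52.4) lost its call without cKO1 (limma adjusted p = 0.132), and Lrfn4 (42.0 and 49.8 against 7.41 and 3.09) and Pm20d2 (35.5 and 46.0 against 0.253 and 2.84) lost theirs without WT2 (limma adjusted p = 0.0734 and 0.130).

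**Figure D4:**
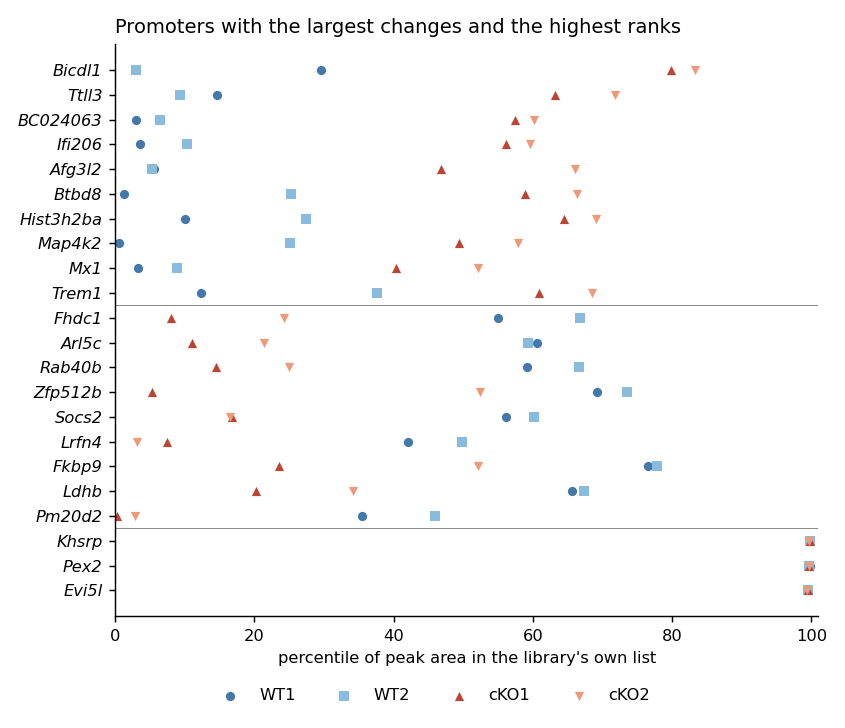
Percentile of peak area in each library's own list for the 10 promoters with the largest rise, 9 of the 10 with the largest fall and the 3 with the highest mean rank, separated by grey lines. Blue marks are WT and red marks cKO libraries. The groups do not overlap in the upper and middle blocks, by the rule that chose them, and in the lowest block the values lie near 100, where the scale ends.

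Few members changed in width past the test. limma on log2 width called 19 members wider (0.305%, background 0.828%) and 73 narrower (1.17%, background 2.14%) in cKO. The rule keeps only merged regions under 1500 bp and so limits widening among members, whereas the background holds wider regions. With no width limit, 41 of 7475 promoters were called wider and 92 narrower. Both cKO widths exceeded both WT widths in 828 members (13.3%, background 16.3%) and fell short of them in 2133 (34.2%, background 36.8%). No member passed on width when any single library was left out, while 776 to 1310 members had an unadjusted p under 0.05 in those fits. Yif1b (chr7:29237376-29238616), which functions in transport between endoplasmic reticulum and Golgi, had a peak of 588 and 609 bp in WT and of 1241 and 1122 bp in cKO, an increase of 0.98 ± 0.07 on the log2 scale (SE, limma adjusted p = 0.0414). Smg9, of the nonsense-mediated decay machinery, widened from 837 and 875 bp to 1347 and 1355 bp (limma adjusted p = 0.0413). Lyl1, a transcription factor of blood cells, measured 890 and 835 bp in WT against 1255 and 1395 bp in cKO (limma adjusted p = 0.0625). The percentiles of Yif1b rose from 83.0 and 86.0 to 92.9 and 92.1, those of Smg9 from 91.8 and 92.4 to 96.0 and 96.9 and those of Lyl1 from 81.4 and 85.6 to 91.2 and 94.7.

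R3hdm2 narrowed from 1236 and 1282 bp to 554 and 526 bp (limma adjusted p = 0.0398), and Fhdc1 from 929 and 1282 bp to 274 and 304 bp (limma adjusted p = 0.0475). Eva1c measured 1148 and 1288 bp in WT but 261 bp in cKO1 and 789 bp in cKO2, and did not pass (limma adjusted p = 0.375).

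Gene lists that fit macrophages and H3.3 were read against the whole set of members, whose median change was -0.59 points. With the lists of peaks cut to equal length the median over the 6095 members then left was 0.26 points and more promoters were called higher, so the counts on that scale are given beside each list. They are to be read against 899 higher and 718 lower of these 6095 members. Over all 41715 regions shared at equal length, 7409 were called higher and 7404 lower. Of 42 list members called, 17 kept their call without any single library. The share called in either direction was 12.6% over all members and ran from 0% (nucleotide synthesis) to 27.3% (immediate early genes) over the 12 lists, which hold 12 to 40 members and 0 to 6 calls each. Of all 44820 regions, 5.68% were called higher and 11.3% lower. Macrophage identity genes had 28 members, of which 0 were called higher and 4 lower (14.3%, against 8.42% of all members and 11.3% of all regions), with a median change of -3.12 points (unadjusted p under 0.05 in 2 higher and 6 lower, and 3 and 7 called at equal length with a median of -1.23). Mertk, a receptor for dying cells, fell from 89.3 and 92.8 to 73.9 and 79.1 (limma adjusted p = 6.02e-05) and kept its call without any single library. Fcgr3, an Fc receptor, fell from 84.4 and 84.2 to 71.6 and 71.2 (limma adjusted p = 0.00465, and up to 0.0936 without WT1 or WT2). Myd88, an adaptor of Toll-like receptors, fell from 75.5 and 79.6 to 59.1 and 62.1 (limma adjusted p = 0.0236), and Irf8, a transcription factor of the monocyte lineage, from 79.97 and 83.8 to 68.4 and 72.2 (limma adjusted p = 0.0252). Myd88 and Irf8 lost the call when WT1, WT2 or cKO1 was left out (limma adjusted p = 0.0797 to 0.295). Cd14, the co-receptor for bacterial lipopolysaccharide, had 23.6 and 44.8 in WT against 18.8 and 6.35 in cKO without passing (limma adjusted p = 0.162), and a Cd36 member had 39.3 and 48.4 in WT against 60.1 and 65.4 in cKO (limma adjusted p = 0.0818), while the other one had 65.9 and 73.5 against 75.6 and 73.5. Neither marker of the study's flow cytometry was called: Adgre1, which encodes F4/80 (73.6 and 79.3 in WT against 75.6 and 77.2 in cKO), and Itgam, which encodes CD11b (50.6 and 58.0 in WT against 50.3 and 55.1 in cKO).

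Interferon-stimulated genes had 40 members, with 2 called higher and 1 lower (5% and 2.5%, background 5.68% and 11.3%). Their median change was 0.45 points (8 and 1 called at equal length, median 2.18). Besides the upstream Mx1 member and the lower Irf8, the exonuclease gene Isg20 rose from 71.6 and 76.3 to 85.3 and 87.6 (12.5 ± 2.598 points, limma adjusted p = 0.00224) and kept its call without any single library. Ifit3 (27.0 and 35.6 in WT against 5.70 and 29.98 in cKO) and Igtp (57.8 and 59.6 in WT against 40.9 and 50.4 in cKO) were not called. Ifi206 is not on that list. Mavs, the mitochondrial adaptor of RNA sensors, stood at 84.1 and 87.6 in WT against 83.2 and 84.1 in cKO. Ifi44, Irf7 and Spi1 had no member, which does not by itself mean a closed promoter. Among the listed interferon-stimulated genes, 5 had no member but a shared promoter region 1500 bp wide or wider.

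Histone chaperones and chromatin remodellers had 26 members, 5 of them called higher and 0 lower (19.2% and 0%, background 5.68% and 11.3%). Their median change was 0.36 points (unadjusted p under 0.05 in 6 higher and 4 lower, and 6 and 1 called at equal length with a median of 1.37). Chd2, a remodeller linked to H3.3 deposition, rose from 50.2 and 55.1 to 71.5 and 76.3 (21.2 ± 6.13 points, limma adjusted p = 0.0203), and Kmt2a, a histone H3 lysine 4 methyltransferase, from 70.8 and 63.0 to 80.2 and 80.6 (limma adjusted p = 0.0268). Chd2 lost its call without WT1, cKO1 or cKO2 and Kmt2a without WT2, cKO1 or cKO2 (limma adjusted p up to 0.137 and 0.168). One of the Arid1a members rose from 86.2 and 87.4 to 94.6 and 95.3, and Ruvbl2 and Spty2d1 rose by 3.13 and 1.87 points, and of these Spty2d1 lost its call without each single library (limma adjusted p up to 0.216). The other Arid1a member had 67.8 and 73.0 in WT against 57.0 and 67.9 in cKO, and Supt16, a subunit of the FACT chaperone, 46.0 and 58.3 in WT against 29.2 and 40.6 in cKO, neither past the test.

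Cell cycle and DNA replication genes had 32 members, 4 called higher and 2 lower (12.5% and 6.25%, background 5.68% and 11.3%). Their median change was 0.70 points (9 and 4 called at equal length with a median of 1.66). Ccnd1, which encodes cyclin D1, had 14.5 in WT1 and 63.1 in WT2 against 81.3 in cKO1 and 79.8 in cKO2, and rose by 41.7 ± 9.95 points (limma adjusted p = 0.00602). The WT libraries were far apart. The region held 2 peaks in WT1, the top one 237 bp wide, and 1 in each other library, 919 bp wide in WT2. With the peaks of each library summed WT1 stood at 42.5, and the rise was 27.7 ± 5.96 points (SE, limma adjusted p = 2.12e-04). Chek1, Mcm5 and Pold1 rose by 4.70, 4.19 and 4.07 points, and the clamp loader subunit Rfc4 and the centromeric histone gene Cenpa fell, with changes of -11.9 and -5.71 points. Without 1 library the limma adjusted p reached 0.187 for Rfc4, 0.274 for Chek1 and 0.0862 for Mcm5, while Ccnd1, Pold1 and Cenpa kept their calls. Mcm5 too had 2 peaks in WT1, and rose by 2.59 points with these summed (limma adjusted p = 1.52e-04). Pola2 (10.6 and 17.5 in WT against 31.9 and 45.1 in cKO), Pole (28.3 and 39.3 in WT against 3.87 and 17.8 in cKO) and both Fen1 members were not called. The Fen1 member at the TSS had 66.8 and 69.9 in WT against 77.6 and 77.5 in cKO, and the one centred 585 bp before it 19.2 and 21.4 in WT against 0.442 and 13.3 in cKO. Mki67 and Tk1 had no member, and 10 genes of this list lacked one but had a shared promoter region 1500 bp wide or wider.

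p53 target genes had 28 members, 2 higher and 2 lower (7.14% and 7.14%, background 5.68% and 11.3%). Their median change was -0.26 points (7 and 2 called at equal length with a median of 0.41). The damage recognition gene Ddb2 rose from 82.9 and 88.4 to 92.5 and 93.4 (7.28 ± 1.35 points, limma adjusted p = 8.55e-04) with its call kept without any single library, and the death receptor gene Fas fell from 80.4 and 80.9 to 58.1 and 67.0 (limma adjusted p = 0.00946), a call lost without WT1 or WT2 (limma adjusted p = 0.103 and 0.0883). Sertad1 rose by 3.29 points and Trp53inp1 changed by -3.13 points, the latter lost without WT1, WT2 or cKO1 (limma adjusted p up to 0.279). Pidd1 and Zmat3 changed by -12.7 and 10.6 points without passing. Cdkn1a, the cell cycle inhibitor p21, had 48.3 and 54.4 in WT against 54.5 and 60.3 in cKO, and the apoptosis gene Bcl2l11 had 90.5 and 91.0 in WT against 88.2 and 90.001 in cKO, neither called. DNA repair genes had 31 members, 0 higher and 2 lower (0% and 6.45%, background 5.68% and 11.3%). Their median change was -0.16 points (unadjusted p under 0.05 in 3 higher and 3 lower, and 6 and 3 called at equal length with a median of 1.20). The 2 called were Parp1, which fell from 84.2 and 86.1 to 73.3 and 80.3 (limma adjusted p = 0.0290), and Brca2, with a change of -7.81 points. Both lost the call without WT1, WT2 or cKO1 (limma adjusted p up to 0.264 for Parp1 and 0.360 for Brca2). Rad51c had a change of -8.99 points, and Ercc2 of 9.81 points, not called.

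Sterol and lipid synthesis genes had 29 members, 1 higher and 4 lower (13.8%, against 8.42% of all members and 11.3% of all regions), with a median change of -1.22 points (2 and 5 at equal length, median -0.71). Both cKO values lay below both WT values in 15 of the 29 (51.7%, background 35.1%) and above them in 2 (6.9%, background 22.2%). Over the 12 lists the share below ran from 17.5% (interferon-stimulated) to 58.3% (nucleotide synthesis), with 42.9% for macrophage identity. The share above ran from 6.9% (sterol and lipid synthesis) to 48.3% (ribosomal protein). Fads2, a fatty acid desaturase, fell from 67.2 and 75.1 to 41.8 and 49.5 (limma adjusted p = 0.0140), a call lost without WT1, WT2 or cKO1 (limma adjusted p = 0.0528 to 0.205). The cholesterol synthesis genes Dhcr7 and Sqle fell from ranks over 90, with changes of -3.15 and -2.02 points, and of these Sqle lost its call without WT1, WT2 or cKO1 (limma adjusted p up to 0.135). Nr1h2, which encodes the sterol sensor LXRβ, rose from 51.3 and 63.8 to 85.6 and 87.4 (29.0 ± 4.74 points, limma adjusted p = 2.55e-04) and kept its call without any single library, and its top peak measured 300 and 590 bp in WT against 1227 and 1244 bp in cKO. The Nr1h2 region held 2 peaks in each WT library and 1 in each cKO library, and with these summed it stood at 77.2 and 83.1 in WT and rose by 6.37 ± 1.99 points (SE, limma adjusted p = 0.0134). Abcg1 and Dgat2 had changes of -9.67 and 9.60 points, not called. Lpin1, a phosphatidate phosphatase, had 58.4 and 61.7 in WT against 58.0 and 67.2 in cKO.

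Immediate early and AP-1 genes had 22 members, 2 higher and 4 lower (9.09% and 18.2%, background 5.68% and 11.3%). Their median change was -0.62 points (7 and 4 called at equal length with a median of -0.46). Batf3 fell from 43.1 and 55.1 to 6.80 and 28.4 (limma adjusted p = 0.0235) and Maff from 72.8 and 77.6 to 27.8 in cKO1 and 64.9 in cKO2 (limma adjusted p = 0.0247). Both are AP-1 family factors of the leucine zipper type, and both lost the call without cKO1 (limma adjusted p = 0.286 and 0.355) or WT2 (limma adjusted p = 0.235 and 0.0775). Maff had 2 peaks in cKO1, and with these summed cKO1 stood at 55.2 and the change was -15.1 points (limma adjusted p = 0.0435). Dusp2 and Nfkbiz fell, with changes of -8.83 and -5.42 points, and Jund and the Dusp1 member at the TSS rose by 3.29 and 8.75 points. A second Dusp1 member, centred further upstream, had 38.4 and 53.1 in WT against 14.2 and 33.8 in cKO and was not called (limma adjusted p = 0.113). Of the 4 called only Dusp2 lost its call, without cKO1 (limma adjusted p = 0.0773). Myc and Ccl4 had changes of 16.0 and 10.0 points without passing.

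The share called in 4 lists of housekeeping genes lay on both sides of that over all members, which was 12.6% and, at equal length, 26.5%. Over all regions, 5.68% were called higher and 11.3% lower, and at equal length 7409 and 7404 of 41715. The shares of the 4 lists, by the main fit and at equal length, were 6.9% and 37.9% for ribosomal protein, 13% and 13% for oxidative phosphorylation, 14.3% and 42.9% for splicing, and 0% and 9.09% for nucleotide synthesis genes. Ribosomal protein genes had 29 members, 0 higher and 2 lower (0% and 6.9%, background 5.68% and 11.3%). The list had a median change of 1.16 points (unadjusted p under 0.05 in 5 and 3, and 10 and 1 called at equal length with a median of 2.57). Rpl14 fell from 96.6 and 97.0 to 93.2 and 92.7 (limma adjusted p = 1.34e-04) and Rpsa from 87.3 and 90.8 to 86.0 and 82.4 (limma adjusted p = 0.0388, lost without WT2 or cKO2 at 0.427 and 0.162 by limma). Oxidative phosphorylation genes had 23 members, 1 higher and 2 lower (4.35% and 8.7%, same background). The median change was 0.17 points, and the counts were the same at equal length with a median of 0.72. Uqcrq rose by 4.08 points, and Ndufa10 fell, with a change of -8.48 points. Uqcrq lost the call without cKO2 and Ndufa10 without WT2 (limma adjusted p = 0.0528 and 0.289). Splicing and RNA processing genes had 21 members, 1 higher and 2 lower (4.76% and 9.52%, same background). The median change was 0.77 points, and 7 and 2 were called at equal length with a median of 2.03. Srsf3 rose by 10.7 points, and Prpf6 and Snrpe fell, with changes of -5.17 and -4.86 points. Srsf3 lost its call without WT1, cKO1 or cKO2 and Prpf6 without WT1 or WT2 (limma adjusted p up to 0.289 and 0.0745). Nucleotide synthesis genes had 12 members, none past limma's test in either direction (0 higher and 0 lower, median change -0.95 points, also 0 with an unadjusted p under 0.05, and 1 and 0 called at equal length with a median of -0.61). Both cKO values of these genes lay below both WT values in 7 members (58.3%, background 35.1%) and above them in 3 (25%, background 22.2%). Their extremes were Shmt2 at -14.5 points and Adsl at 6.30 points, and Impdh1, for inosine monophosphate dehydrogenase, had 81.1 and 83.1 in WT against 73.9 and 79.6 in cKO (limma adjusted p = 0.205). The other members at the extremes of these lists, among them Rps9 with 13.5 points and Rpl26 with 10.6 points, were not called.

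**Figure D5:**
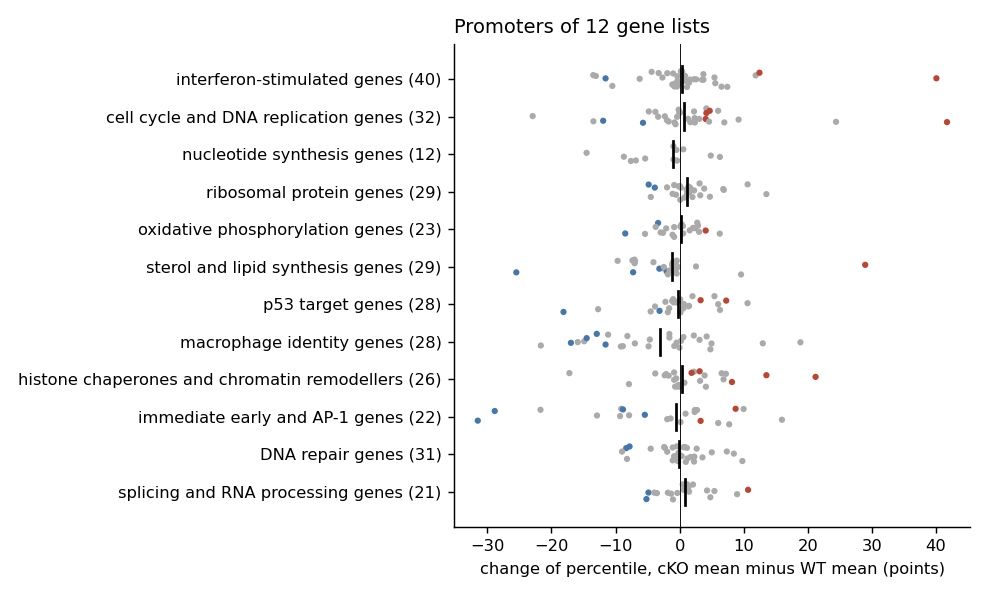
Change of percentile (cKO mean minus WT mean, in points) for each member promoter of 12 gene lists, with the number of members in brackets and the list's median as a black bar. Red and blue points were called higher and lower by limma, and grey points were not called. Macrophage identity genes have the lowest median (-3.12 points), and most members of every list lie within 20 points of 0.

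Markers of cell types were few among the members. Of 14 macrophage markers, 7 had a member (8 promoters), and their median percentiles were 69.7 and 76.4 in WT against 74.7 and 75.4 in cKO. Of the markers of other cells a bone marrow culture could hold, 1 of 7 neutrophil, 1 of 4 B cell, 1 of 5 T and NK cell, 1 of 4 erythroid, 3 of 4 dendritic cell and 0 of 5 fibroblast and stromal markers had a member. S100a8 of neutrophils fell from 76.5 and 78.3 to 50.3 and 64.0 (limma adjusted p = 0.0182) and Klrb1c of NK cells from 70.4 and 75.5 to 33.5 and 46.3 (limma adjusted p = 0.00313). Of the dendritic cell markers, Zbtb46 fell from 69.0 and 74.1 to 39.6 and 56.5 (limma adjusted p = 0.0256), Siglech rose from 10.9 and 31.9 to 43.2 and 55.5 (limma adjusted p = 0.0390) and Flt3 had 24.2 and 37.3 in WT against 47.0 and 53.9 in cKO (limma adjusted p = 0.109). Ms4a1 of B cells had 3.56 and 23.5 in WT against 28.5 and 35.5 in cKO and was not called. S100a8 and Zbtb46 lost the call without WT1, WT2 or cKO1, and Siglech without WT1, cKO1 or cKO2 (limma adjusted p up to 0.139, 0.246 and 0.4002). What part other cells or other states of these cells had in the changes at the members was not tested.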

How the data were processed

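ATAC-seq was made from BMDMs of WT and cKO mice (2 libraries each). The authors aligned reads to mm10 with Bowtie2 2.5.1 and called peaks in each library with Genrich at default settings (genome and tools per the labels and the study's methods). Read filters, duplicate removal and any shift for Tn5 are not given in the sources used here. Per peak, the deposited signal column holds the area under the significance curve, and the deposited −log10 p column holds the value at the summit, which was not used for a result. The lowest deposited signal was just over 200 in each list, so weaker sites are absent.

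Peaks were merged and annotated with the GENCODE vM21 basic annotation in Python 3.11.15 (pandas 2.3.3, numpy 2.4.6). A region's value in a library was that of its peak with the largest area, and members are named after the nearest protein-coding TSS. Coordinates are 1-based. Percentiles and log2 widths were fitted for all 44820 shared regions in limma 3.58.1 (R 4.3.3) with a mean-variance trend, and adjusted p-values are Benjamini-Hochberg over all of these regions. A run on simulated data drew its spread from the region mean alone, as that trend assumes, so it cannot check the trend. Region fits measure the spread between 2 libraries a group. Library medians were compared by exact permutation over 6 assignments. Groups came from sample titles. RefSeq promoter windows matched the build at all 32851 entries.

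Named genes were H3f3a and H3f3b, the 10 largest rises and 10 largest falls of percentile, the 4 largest widenings and narrowings (members with 1 peak per library and groups that did not overlap), the 3 highest ranks, the extremes of each list and genes the study names, and the members called in each list are named as well. Some genes that this rule picks are not reported here. Members, the 12 lists, the markers and the 13 motifs were chosen with earlier results of these data known. Alternatives covered peak sets, promoter windows, scales, fits and leaving out each library.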

Additional observations from a re-analysis of the deposited data

How the results depend on the processing

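The difference in median percentile, -0.74 points, was 0.77 points with lists of equal length and ranged from -2.38 to 0.91 when 1 library was left out. The difference in width gap, 5 bp, was -5.5 bp in the upper 50% of peaks and ranged from -7.5 to 17.5 bp with 1 library left out. Members called higher (261) and lower (525) numbered 899 and 718 with lists of equal length, 927 and 739 on quantile-normalized log2 area, 395 and 688 with no limit on region width, 459 and 1012 with a window of 2500 bp on both sides, 124 and 247 in the upper 50% of peaks, and 0 and 0 in limma without the trend. With 1 library left out they ranged from 108 to 283 and from 181 to 753. Members called wider (19) and narrower (73) numbered 10 and 49 with 1 peak per library, 0 and 0 when called by a cover of at least 50%, 41 and 92 with no width limit, 57 and 166 with the window of 2500 bp, 10 and 48 with summed peaks, 7 and 15 in the upper 50%, and 0 and 0 on the rank of the width and with any 1 library left out. The unadjusted p was under 0.05 on width in 776 to 1310 members across these fits with 0 calls. Among the named promoters, 527 of 666 single results kept their side of the threshold under an alternative, 92 lost the call, 47 gained one and 0 turned direction with a call, and the filters on regions were not recomputed for single promoters, apart from the sum of peaks in regions that held more than 1. These pooled counts include uncalled promoters that stayed uncalled, since 45 of the 85 named promoters were called. All 45 lost the call in limma without the trend. The cause was not tested.

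With the replicate number as a replicate block, 646 members were called higher and 1074 lower in percentile, and 0 wider and 0 narrower (810 had an unadjusted p under 0.05). The labels give replicate numbers without saying that they pair libraries. The difference of replicate 2 from replicate 1 had a Pearson correlation of 0.37 between WT and cKO across the 6237 members, which share these libraries and the longer lists of replicate 2. The precision is limited by 2 libraries a group, by unknown read depth and by the caller's limit on area.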

Other observations

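A few of the promoters that kept their call without any single library (74 higher and 147 lower in cKO) and are outside the lists used are given here. They were chosen after their values were seen and stand for no group of genes. Among the lower ones, Cyba, which encodes the p22phox subunit of the phagocyte NADPH oxidase, had percentiles of 92.0 and 91.5 in WT against 71.0 and 74.9 in cKO (-18.8 ± 2.14 points, SE, limma adjusted p = 5.28e-06). Hvcn1, the voltage-gated proton channel that works with the oxidase, fell from 52.8 and 53.2 to 9.35 and 20.1. Slamf8, a receptor of the SLAM family, fell from 92.3 and 91.7 to 71.8 and 73.0 (limma adjusted p = 2.25e-06), the neonatal Fc receptor gene Fcgrt from 86.6 and 88.05 to 67.9 and 73.1, the purinergic receptor gene P2rx4 from 89.4 and 88.2 to 75.5 and 82.4, and the atypical chemokine receptor gene Ccrl2 from 74.5 and 82.5 to 44.0 and 46.7. The Ccrl2 region held 2 peaks in cKO2, and with these summed cKO2 stood at 60.4 (limma adjusted p = 7.35e-04).

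Among the higher ones, Kcnn4, a calcium-activated potassium channel, rose from 59.6 and 65.9 to 87.2 and 89.96 (25.8 ± 3.62 points, SE, limma adjusted p = 5.47e-05). Nlrx1, a mitochondrial NOD-like receptor, rose from 39.1 in WT1 and 67.5 in WT2 to 86.5 and 90.8. Mterf2, an autosomal gene for a mitochondrial protein (37.6 and 47.8 in WT against 75.6 and 87.7 in cKO), rose as well, as did Zwilch, of the kinetochore checkpoint complex, from 14.8 and 13.7 to 50.6 and 67.4. These last 3 regions held 2 peaks in a WT library. With the peaks of each library summed, Nlrx1 and Mterf2 rose by 23.8 and 24.1 points, and Zwilch had 37.4 and 40.6 in WT against 50.6 and 67.4 in cKO and lost its call (limma adjusted p = 0.0599).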
